A study of Arabidopsis thaliana with 6 samples.

Results

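Counts of RNA reads were examined for 10 genes of jasmonic acid (JA) turnover, chosen by locus identifier from the 32833 genes that the files list. They are CYP94B1 (AT5G63450), CYP94B3 (AT3G48520), CYP94C1 (AT2G27690), JAO1 (AT3G11180), JAO2 (AT5G05600), JAO3 (AT3G55970), JAO4 (AT2G38240), ST2A (AT5G07010), ILL6 (AT1G44350) and IAR3 (AT1G51760). The rule that lists them uses identifiers and no measured value, but the list was chosen with earlier results of these data known. Of the 10 genes, 9 had enough counts to be tested among 21374 tested genes, and JAO1 did not.

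The RNA came from untreated Arabidopsis thaliana plants that were 21 days old, grew on soil in long days and were harvested without their roots. The 3 genotypes shared the Col-0 ecotype and had 2 libraries each. Col-0 was the wild type. LNJ-OX plants overexpressed LITTLE NINJA (LNJ), a FLAG-tagged short protein derived from Arabidopsis AFP2 that was driven by a doubled CaMV 35S promoter, which is active in most plant tissues. The jazD line is a decuple JAZ mutant, whose mutated loci the labels leave unnamed. Age and tissue follow the labels, whereas the methods of the study give leaves harvested slightly earlier.

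JA is made from membrane lipids and is joined to isoleucine to give JA-Ile, the form that the receptor COI1 perceives together with a JAZ protein. JAZ proteins repress MYC transcription factors with the help of the adaptor NINJA, and JA-Ile sends them to degradation. The 10 genes act on the other side, where the hormone and its precursor are removed. CYP94 cytochromes oxidise JA-Ile, JAO enzymes hydroxylate JA before it is conjugated, ST2A adds sulfate to hydroxylated JA, and the amidohydrolases ILL6 and IAR3 split the conjugates. Many JA turnover genes are known to be switched on by JA signalling itself.

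Library totals ran from 10164591 to 15003290 counts. AFP2 counted between 50.0 and 63.5 CPM (counts scaled to a common library size) in LNJ-OX and between 8.19 and 11.0 in Col-0, and counts cannot tell the transgene from the native gene. Of the 13 JAZ genes, 12 were tested, and in jazD 3 were called lower and 2 higher than in Col-0, where called means past the thresholds given with the comparisons. Leaf photosynthesis genes summed to between 46734 and 79883 CPM, while 8 root marker genes summed to at most 2.77 CPM, with 4 to 6 of them at 0 in each library. Flower and pollen marker genes (19, all tested) summed to 285 and 275 CPM in Col-0, to 104 and 279 CPM in LNJ-OX, and to 56.9 and 80.0 CPM in jazD. In LNJ-OX replicate 1, 1 of these 19 genes was at 0, and none was at 0 in the other libraries. In RNA from whole shoots, fewer cells of a type and less RNA per cell cannot be told apart. P-values measure the spread between these libraries, which the study's methods call biological replicates.

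The 10 genes lie on 4 chromosomes with none overlapping another annotated gene, given here in the TAIR10.1 assembly. The 3 CYP94 genes each have 1 exon, at chr5:25408821-25410725 (CYP94B1, minus strand), chr3:17974853-17976774 (CYP94B3, minus) and chr2:11809279-11811280 (CYP94C1, plus). The JAO genes are at chr3:3503917-3507113 (JAO1, plus, 5 exons), chr5:1672070-1674770 (JAO2, plus, 2 to 3 exons), chr3:20766735-20769410 (JAO3, minus, 2 to 3 exons, named JRG21 in RefSeq) and chr2:16012535-16014991 (JAO4, minus, 3 exons). ST2A is at chr5:2174668-2176446 on the minus strand with 1 exon. ILL6 (chr1:16834210-16838562, minus) and IAR3 (chr1:19199351-19201707, plus) have 5 exons each.

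Counting can be uncertain between close copies, so identity was computed between aligned coding sequences. CYP94B1 and CYP94B3 were 77.4% identical, and CYP94C1 was 61.1 and 62.8% identical to them. Within the JAO family, JAO1 and JAO2 were the closest pair at 80.2%, and the other pairs lay between 62.7 and 70.9%. ILL6 and IAR3 were 62.3% identical. ST2A was 91.6% identical to ST2B, its direct neighbour among coding genes, and IAR3 was 87.8% identical to ILL5, which is separated from it by 1 coding gene. Values of ST2A and IAR3 are therefore the least certain if reads were shared with these copies.

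Promoter sequence is shown for the 4 genes that were called in jazD below, because JA-responsive transcription factors bind short motifs in this region. Sequences were read from the RefSeq TAIR10.1 genome on the gene's strand, 300 bases each, and capitals mark a motif match. The windows of JAO2 (chr5:1671770-1672069, plus), JAO3 (chr3:20769411-20769710, minus) and ST2A (chr5:2176447-2176746, minus) end at the base before the annotated start. The window of CYP94B1 (chr5:25410876-25411175, minus) covers bases 450 to 151 before the start and was placed to hold its G-box. The 300 bases directly before the start of CYP94B1 hold no match. The other windows were not moved.
CYP94B1: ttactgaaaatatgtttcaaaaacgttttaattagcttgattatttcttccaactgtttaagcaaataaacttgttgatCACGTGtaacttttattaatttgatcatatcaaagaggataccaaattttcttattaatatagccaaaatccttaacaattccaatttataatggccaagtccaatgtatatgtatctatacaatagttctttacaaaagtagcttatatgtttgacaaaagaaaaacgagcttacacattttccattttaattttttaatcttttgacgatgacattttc
JAO2: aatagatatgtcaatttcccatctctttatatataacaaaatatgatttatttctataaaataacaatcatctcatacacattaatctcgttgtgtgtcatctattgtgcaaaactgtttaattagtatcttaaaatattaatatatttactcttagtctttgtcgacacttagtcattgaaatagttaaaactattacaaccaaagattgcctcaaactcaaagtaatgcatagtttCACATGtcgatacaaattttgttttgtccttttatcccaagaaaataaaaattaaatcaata
JAO3: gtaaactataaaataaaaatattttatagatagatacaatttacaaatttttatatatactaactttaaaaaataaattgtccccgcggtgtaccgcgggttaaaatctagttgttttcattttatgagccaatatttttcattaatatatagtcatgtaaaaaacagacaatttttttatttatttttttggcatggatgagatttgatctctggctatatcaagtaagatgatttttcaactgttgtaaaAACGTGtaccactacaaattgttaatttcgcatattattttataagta
ST2A: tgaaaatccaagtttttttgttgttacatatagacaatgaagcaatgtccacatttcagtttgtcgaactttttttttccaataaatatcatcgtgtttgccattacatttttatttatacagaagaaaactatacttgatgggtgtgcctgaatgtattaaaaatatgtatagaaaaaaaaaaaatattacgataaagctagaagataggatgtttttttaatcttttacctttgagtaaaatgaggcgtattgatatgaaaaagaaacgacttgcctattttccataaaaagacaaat

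Motifs were searched on both strands as the G-box CACGTG, its variant CACATG or CATGTG, the T/G-box AACGTG or CACGTT, and the GCC-box GCCGCC or GGCGGC, and no 2 matches in the members shared a base. The CYP94B1 window holds a G-box 371 bases before the start. The JAO2 window holds the G-box variant at 62 bases and the JAO3 window a T/G-box at 48 bases before the start, while the ST2A window holds no match. Outside its window, ST2A has a G-box variant 700 bases before the start. Over the 300 bases before the start of all 10 genes, a G-box was found in 1 (JAO1), the variant in 2 (JAO2 and CYP94C1), the T/G-box in 2 (JAO1 and JAO3) and the GCC-box in 0. The shares over 27443 promoters were 7.09, 13.1, 8.71 and 2.26%, respectively. Over 1000 bases the 4 motifs were found in 3, 4, 5 and 1 of the 10 genes, against 14.8, 37.7, 23.8 and 8.44% of all promoters. These are letter matches and not measured binding sites.

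To see how the RNA levels of the genes ranked in each genotype, every gene was first compared per length, as CPM per kb of exon. Enzyme activity was not measured. In Col-0 the amidohydrolase IAR3 led with 32.2 ± 2.05 CPM per kb (SD, n = 2), followed by the hydroxylases JAO2 with 11.5 ± 1.33 and JAO3 with 9.70 ± 1.33 CPM per kb, whose libraries overlapped. ILL6 stood at 7.70 ± 0.101 CPM per kb, and JAO4 at 5.30 ± 2.29 and ST2A at 4.79 ± 0.883 CPM per kb did not differ beyond their spread. The cytochromes were low, with CYP94C1 at 1.50 ± 0.337, CYP94B3 at 0.931 ± 0.0735 and CYP94B1 at 0.865 ± 0.241 CPM per kb, the last pair overlapping. JAO1 was lowest at 0.210 ± 0.226 CPM per kb.

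The order differed in jazD, where the JAO genes JAO2 (101 ± 29.0 CPM per kb) and JAO3 (87.0 ± 2.77 CPM per kb) overlapped and stood above IAR3 (45.7 ± 13.2 CPM per kb). IAR3 overlapped with JAO4 (45.2 ± 22.4 CPM per kb), and JAO4 with ILL6 (27.8 ± 8.15 CPM per kb). ST2A reached 18.6 ± 1.44, CYP94B1 9.41 ± 1.17, CYP94C1 4.94 ± 0.793, CYP94B3 2.83 ± 1.16 and JAO1 0.680 ± 0.463 CPM per kb, each apart from the next. CYP94B1, which overlapped with CYP94B3 at the lower end of the cytochromes in Col-0, was the highest of the 3 in jazD. In LNJ-OX, IAR3 remained first at 38.2 ± 7.24 CPM per kb, JAO2 (21.2 ± 5.87), JAO3 (18.2 ± 7.26), JAO4 (13.2 ± 10.01) and ILL6 (12.3 ± 5.27) overlapped each with the next, and ST2A followed at 5.89 ± 0.462 CPM per kb. CYP94B3, at 3.26 ± 0.869 CPM per kb, was the highest cytochrome there, above CYP94C1 at 1.67 ± 1.03 and CYP94B1 at 1.64 ± 0.171 CPM per kb, which overlapped. With coding length in place of exon length, JAO4 changed places with ST2A in Col-0, with ILL6 in LNJ-OX and with IAR3 in jazD.

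Summed by enzyme class, the 10 genes came to 70.1 and 79.3 CPM per kb in the Col-0 libraries, to 142 and 88.8 in LNJ-OX, with 398 and 288 in jazD. The 4 JAO genes made up 33.3 and 37.9% of this sum in Col-0, 48.5 and 40.8% in LNJ-OX, with 68.4 and 67.8% in jazD. The amidohydrolases ILL6 and IAR3 took the largest share in Col-0, with 54.8 and 52.3%, and 41.7 and 46.9% in LNJ-OX, but 22.3 and 20.3% in jazD. The CYP94 genes took between 4.19 and 6.02% and ST2A between 4.37 and 7.73% in all 6 libraries. In summed level every class was higher in both jazD libraries than in both Col-0 libraries. The amidohydrolases had 38.4 and 41.5 CPM per kb in Col-0 and 88.6 and 58.4 in jazD. The CYP94 genes had 2.94 and 3.65 in Col-0 and 17.7 and 16.6 in jazD. ST2A had 5.42 and 4.17 in Col-0 and 19.6 and 17.6 in jazD.

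**Figure D1:**
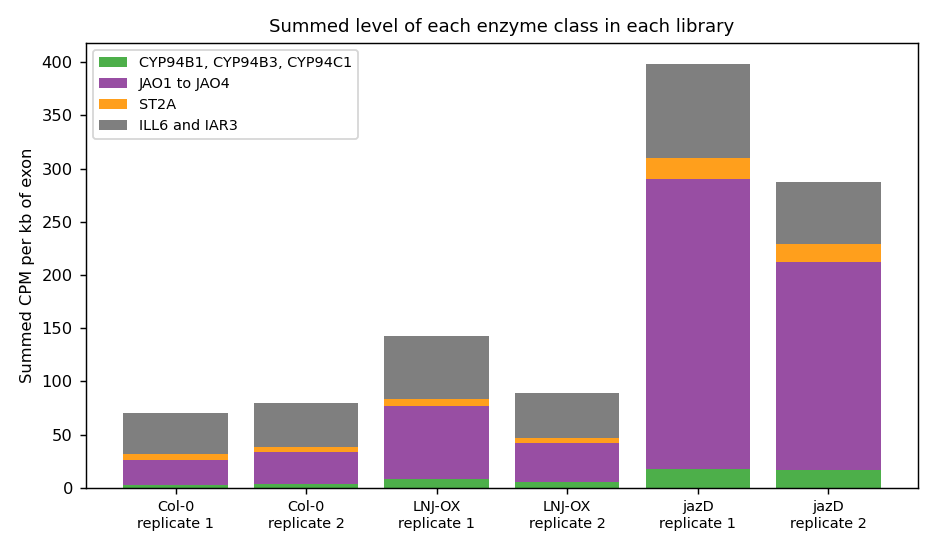
Summed CPM per kb of exon of each enzyme class (stacked colours) in each of the 6 libraries, with no error bars because each bar is 1 library. The jazD bars reach 398 and 288, and most of their height is the JAO class, while the Col-0 bars stay at 70.1 and 79.3.

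Values by library follow, as CPM scaled with TMM factors and with replicate 1 given first. CYP94B1, which hydroxylates JA-Ile, had 1.32 and 1.97 CPM in Col-0, 2.90 and 3.36 in LNJ-OX, with 16.4 and 19.5 in jazD. The 3 genotypes did not overlap, and the jazD libraries stood far above the rest. CYP94B3, which catalyses the same step, had 1.89 and 1.69 CPM in Col-0, 7.44 and 5.08 in LNJ-OX, with 7.03 and 3.86 in jazD. Both other genotypes lay above Col-0 and overlapped with each other. CYP94C1, which carries the oxidation of hydroxylated JA-Ile further to the carboxy form, had 2.52 and 3.47 CPM in Col-0, 4.81 and 1.89 in LNJ-OX, with 11.0 and 8.77 in jazD. For CYP94C1 the LNJ-OX libraries lay on both sides of Col-0 and the jazD libraries above all others.

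The JAO enzymes are iron-dependent dioxygenases that turn JA into hydroxylated JA. JAO2 had 25.3 and 29.8 CPM in Col-0, 60.8 and 40.9 in LNJ-OX, with 290.6 and 192 in jazD, with no overlap between genotypes. JAO3 showed the same order, with 19.0 and 23.1 CPM in Col-0, 50.7 and 28.4 in LNJ-OX, with 193 and 185 in jazD. JAO4 had 5.80 and 10.9 CPM in Col-0, 31.9 and 9.64 in LNJ-OX, with 96.1 and 46.2 in jazD, so LNJ-OX replicate 2 fell within the Col-0 range. JAO1 was counted 11 and 1 times in Col-0, 0 and 0 times in LNJ-OX, and 18 and 7 times in jazD. The pooled jazD level of JAO1, 1.24 CPM, was 11.1-fold above the limit that 3 counts over the LNJ-OX group set, 0.112 CPM. This ratio leaves out the counting error of the 25 jazD counts and the spread between libraries, so it is not a lower bound. Reads from JAO1 may also have been placed on its close copy JAO2.

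ST2A, the sulfotransferase of hydroxylated JA, had 9.64 and 7.42 CPM in Col-0, 11.1 and 9.90 in LNJ-OX, with 34.9 and 31.3 in jazD. LNJ-OX lay just above Col-0 here and jazD well above both. ILL6, an amidohydrolase that acts on JA-Ile and its hydroxylated form, had 17.5 and 17.8 CPM in Col-0, 36.8 and 19.7 in LNJ-OX, with 77.1 and 50.6 in jazD, again with no overlap. IAR3, which splits hydroxylated JA-Ile and also auxin conjugates, had 55.9 and 61.2 CPM in Col-0, 78.7 and 60.1 in LNJ-OX, with 100.04 and 66.1 in jazD. The LNJ-OX libraries of IAR3 overlapped with both other genotypes.

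**Figure D2:**
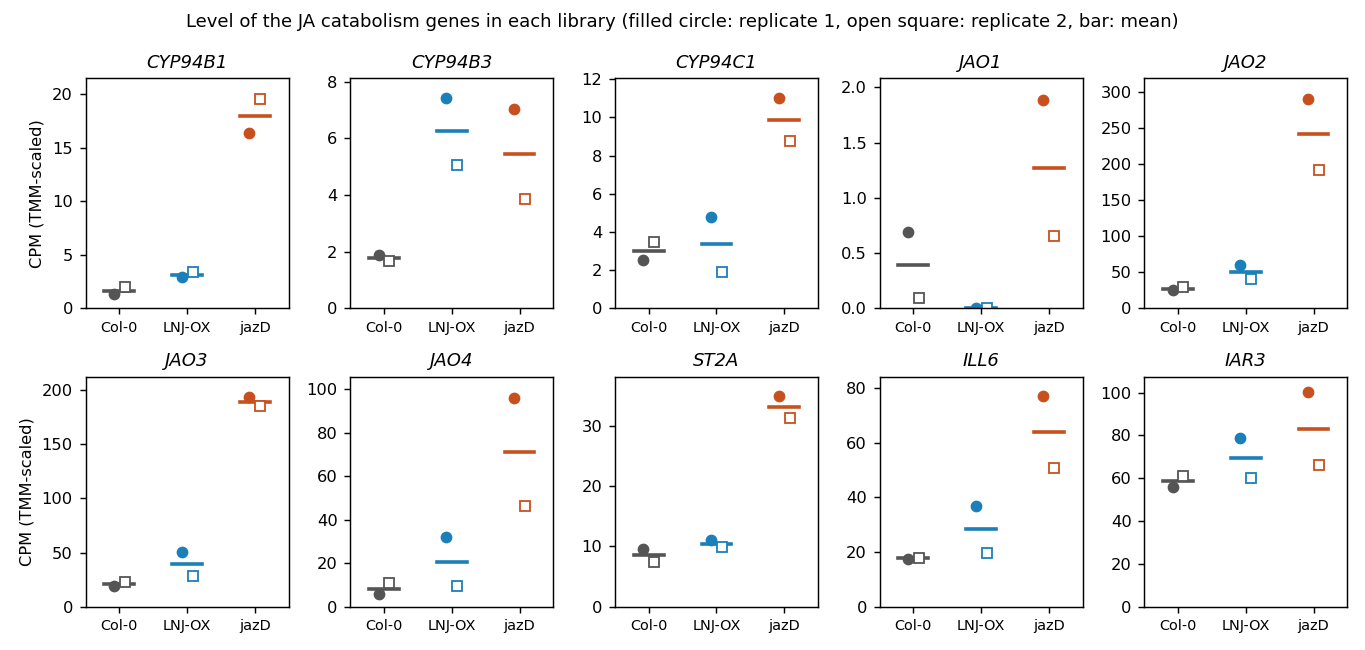
Level of each of the 10 genes in TMM-scaled CPM (vertical axis, from 0, a scale of its own in each panel) for Col-0, LNJ-OX and jazD; circles are replicate 1, squares replicate 2 and bars the mean of both. CYP94B1, JAO2, JAO3 and ST2A sit far higher in jazD than in the other genotypes (16.4 and 19.5 CPM for CYP94B1), while CYP94B3 sits as high in LNJ-OX (7.44 and 5.08 CPM) as in jazD.

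To find which of these genes differ in the decuple mutant, jazD was compared with Col-0. Genes past both thresholds, 0.01 for the adjusted p and 1 for the size of the log2 fold change, are described as called. CYP94B1, JAO2, JAO3 and ST2A were called higher, 4 of the 9 tested, while 0.44% of all tested genes were called higher in this comparison. CYP94B1 rose by 3.46 on the log2 scale (SE 0.36, edgeR adjusted p = 0.000712), which is 11.0-fold. JAO2 rose 8.78-fold (log2 fold change 3.13, SE 0.32, edgeR adjusted p = 0.000712) and JAO3 8.98-fold (3.17, SE 0.32, edgeR adjusted p = 0.000636). By p-value, JAO3, JAO2 and CYP94B1 ranked 27, 29 and 31 among the 21374 genes. ST2A rose 3.86-fold (log2 fold change 1.95, SE 0.25, edgeR adjusted p = 0.00256) and ranked 85.

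The other 5 tested genes were also measured higher in jazD without reaching the threshold. JAO4 differed by 3.11 on the log2 scale, as much as JAO2 and JAO3, but its SE was 0.55 and its edgeR adjusted p 0.0120. ILL6 had 1.85 (SE 0.32, edgeR adjusted p = 0.0116). These 2 genes made 6 with an adjusted p under 0.05, against 1.44% of all tested genes in that direction. CYP94C1 (1.73, SE 0.45, edgeR adjusted p = 0.0611), CYP94B3 (1.59, SE 0.44, edgeR adjusted p = 0.0770) and IAR3 (0.50, SE 0.27, edgeR adjusted p = 0.456) stayed above that. Both jazD libraries lay above both Col-0 libraries for all 9 tested genes, which was the case for 19.5% of all tested genes. The median log2 fold change of the 9 was 1.95, and that of all tested genes was 0.01.

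Without a filter on low counts 8 members were called higher, all but IAR3 and JAO1, while the calls over all genes went from 94 of 21374 to 480 of 27479. The 4 calls depended on Col-0 replicate 1, since none of the 4 passed without it. The edgeR adjusted p was then 0.0131 for CYP94B1, 0.0139 for JAO2, 0.0132 for JAO3 and 0.0131 for ST2A, with log2 fold changes of 3.20, 3.04, 3.05 and 2.18, and over all genes 13 were called higher in place of 94. ST2A also lost its call without Col-0 replicate 2 (edgeR adjusted p = 0.0109), jazD replicate 1 (0.0310) or jazD replicate 2 (0.0200). Flower and pollen markers moved with this comparison, with 18 of 19 measured lower in jazD and a median log2 fold change of −1.85. Of the 19, edgeR called 2 lower, DESeq2 6 and limma-voom 0, and edgeR called 144 of all 21374 genes lower. Their part in the members' differences was not tested.

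The same question was asked of LNJ-OX against Col-0. None of the 9 tested genes was called in either direction, while 1.42% of all tested genes were called, and DESeq2 and limma-voom also called 0 of them. CYP94B3 came nearest, 3.48-fold higher (1.80 on the log2 scale, SE 0.43, edgeR adjusted p = 0.0390), and was the only member with an adjusted p under 0.05, against 2.56% of all tested genes in that direction. The adjusted p of CYP94B3 was 0.0544 with limma-voom and 0.0156 with DESeq2. In edgeR it was 0.0498 on just the 4 libraries compared and 0.0148 with replicate number as a block. The log2 fold change of CYP94B3 was 1.90 without Col-0 replicate 1 and 1.73 without Col-0 replicate 2. It was 1.50 without LNJ-OX replicate 1 and 2.04 without LNJ-OX replicate 2. At an unadjusted p under 0.05, 5 of the 9 were higher (CYP94B1, CYP94B3, JAO2, JAO3 and JAO4), against 8.97% of all tested genes in that direction. Without a filter on low counts, CYP94B3 and JAO4 were called higher, while the calls in that direction over all genes went from 179 of 21374 to 752 of 27479.

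All 9 log2 fold changes were above 0 in LNJ-OX, with a median of 0.89, while 49.3% of all tested genes were above 0 and their median was −0.01. JAO4 had 1.34 (SE 0.53, edgeR adjusted p = 0.203), CYP94B1 0.94 (SE 0.36, edgeR adjusted p = 0.191), JAO3 0.91 (SE 0.30, edgeR adjusted p = 0.123) and JAO2 0.89 (SE 0.30, edgeR adjusted p = 0.136). ILL6 with 0.68, ST2A with 0.29, IAR3 with 0.24 and CYP94C1 with 0.19 were smaller, and the 95% intervals of all 4 included 0. Both LNJ-OX libraries lay above both Col-0 libraries for 6 of the 9 genes, and this was the case for 24% of all tested genes. CYP94C1, JAO4 and IAR3 were the ones that overlapped.

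The LNJ-OX libraries differed from each other in these genes. In LNJ-OX 8 of 9 tested members were higher in replicate 1 than in replicate 2, with a median log2 difference of 0.57, and CYP94B1 was the exception. The same held for 8 of 9 in jazD (median 0.59), whereas 2 of 9 were higher in replicate 1 in Col-0 (median −0.24). Of all 21374 tested genes, 11332 were higher in replicate 1 in LNJ-OX, 10618 in jazD and 10648 in Col-0. Without LNJ-OX replicate 1 the log2 fold change of JAO4 against Col-0 was 0.24, and without replicate 2 it was 1.95. That of CYP94C1 turned to −0.64 without LNJ-OX replicate 1 and to −0.02 without Col-0 replicate 1. All 19 flower and pollen markers were lower in LNJ-OX replicate 1 than in replicate 2, with a median log2 difference of −1.78, and their part in the members' differences was not tested.

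The genotypes were then compared directly, which tests whether the members differ from Col-0 by the same amount in both. CYP94B1, JAO2, JAO3 and ST2A were called lower in LNJ-OX than in jazD, 4 of 9, against 0.332% of all tested genes. The difference was −2.52 for CYP94B1 (SE 0.33, edgeR adjusted p = 0.00274), −2.25 for JAO2 (SE 0.31, edgeR adjusted p = 0.00329), −2.25 for JAO3 (SE 0.30, edgeR adjusted p = 0.00309) and −1.66 for ST2A (SE 0.25, edgeR adjusted p = 0.00620) on the log2 scale. In folds, jazD was 5.74 times higher for CYP94B1, 4.75 for JAO2, 4.77 for JAO3 and 3.15 for ST2A. JAO4 (−1.76, SE 0.51), CYP94C1 (−1.54, SE 0.44) and ILL6 (−1.17, SE 0.32) lay in the same direction with edgeR adjusted p of 0.127, 0.125 and 0.0971.

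CYP94B3 and IAR3 were the members whose libraries overlapped between LNJ-OX and jazD. For CYP94B3 the log2 difference was 0.21 with a 95% interval from −0.69 to 1.104 (edgeR adjusted p = 0.884), and for IAR3 it was −0.26 with an interval from −0.85 to 0.33 (edgeR adjusted p = 0.762). The other 7 tested members were lower in both LNJ-OX libraries than in both jazD libraries, as were 25% of all tested genes. The number of members called lower fell from 4 to 1 without LNJ-OX replicate 2 or without jazD replicate 2, and to 0 without jazD replicate 1. With library totals in place of TMM factors, ST2A was no longer called in this comparison (edgeR adjusted p = 0.0190).

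**Figure D3:**
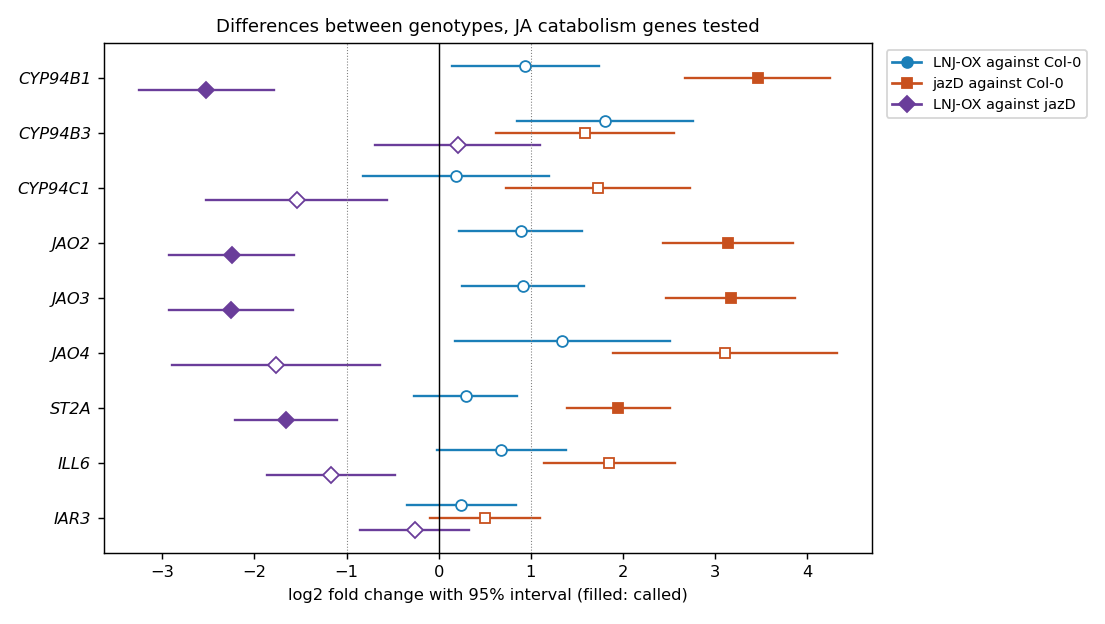
Log2 fold change (horizontal axis) with its 95% interval for the 9 tested genes in each of the 3 comparisons, with filled symbols for called genes and dotted lines at the fold threshold. CYP94B1, JAO2, JAO3 and ST2A are filled in jazD against Col-0 and in LNJ-OX against jazD, while no symbol is filled in LNJ-OX against Col-0.

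Over the 6 libraries, the profiles of the 9 tested members were compared as log2 CPM, as a description, since the libraries share 3 genotypes. The 36 pairs had a median Pearson r of 0.89, from 0.44 between CYP94B3 and CYP94C1 to 0.99 between JAO2 and JAO3. Against the mean of the other members, ILL6 (r = 0.993), JAO2 (0.984), JAO4 (0.980) and JAO3 (0.971) were the most alike. ST2A (0.916), CYP94C1 (0.907) and CYP94B1 (0.904) followed, IAR3 had 0.817, and CYP94B3 had 0.639. Among 13448 other genes of at least 10 CPM on average, the 5 most like the members' mean were HCF106 (r = 0.991), AT2G29340 (0.988), MEB1 (0.988), AT1G51745 (0.988) and IGMT5 (0.987). In all, 213 of these genes had an r above 0.9. The r leaves out the size of a change. Mean levels in Col-0 and jazD were 73.6 and 111 CPM for HCF106 and 78.9 and 147 for AT2G29340. They were 17.2 and 62.7 CPM for MEB1, 15.4 and 19.1 for AT1G51745, and 3.88 and 23.6 for IGMT5. With a prior count of 0.5, IGMT5 was no longer among the 5.

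Other genes of the JA pathway were examined for comparison, as lists. Of 19 further genes of JA turnover and conjugation, 17 were tested and 0 were called in any of the 3 comparisons by edgeR. At an unadjusted p under 0.05, 1 was higher and 4 lower in LNJ-OX, 2 were higher and 1 lower in jazD, and 2 were higher and 5 lower in LNJ-OX against jazD. DESeq2 called 2 of them higher in jazD and 1 lower in LNJ-OX than in jazD, and limma-voom called 0. The medians of their log2 fold changes were −0.14 (LNJ-OX) and −0.20 (jazD) against Col-0. Of 14 JA synthesis genes, 13 were tested, with a median of 0.73 in LNJ-OX and 0.63 in jazD. Their log2 fold changes ran from −0.32 to 1.48 in LNJ-OX and from −0.42 to 2.92 in jazD. At an unadjusted p under 0.05 in edgeR, 3 were higher in LNJ-OX and 6 in jazD, with 0 lower in either. At an edgeR adjusted p under 0.05, 2 JA synthesis genes were higher in LNJ-OX and 3 in jazD. LOX4, a lipoxygenase of the first step of JA synthesis, was the only one that edgeR called, in jazD (log2 fold change 1.87, edgeR adjusted p = 0.00519), where it had 44.8 and 32.9 CPM against 12.7 and 8.45 in Col-0. Limma-voom also called LOX4 alone, and DESeq2 called 4 JA synthesis genes higher in jazD. In summed level the JA synthesis genes had 1319 and 1131 CPM in Col-0, 2488 and 1300.2 in LNJ-OX, with 4869 and 2019 in jazD, with replicate 1 above replicate 2 in each genotype.

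Genes that respond within minutes to touch or wounding were examined as a further list. Of 15 listed, 13 were tested, and edgeR called 4 of them higher in LNJ-OX than in Col-0 (median log2 fold change 1.35), where 179 of all 21374 genes were called higher. DESeq2 called 8 and limma-voom 3, without WRKY40. In edgeR 0 were called in jazD against Col-0 (median 0.54), where 5 were higher at an unadjusted p under 0.05, and where DESeq2 called 1 and limma-voom 0. The 4 that edgeR called in LNJ-OX were TCH4, a cell wall enzyme, with 58.6 and 55.3 CPM in LNJ-OX against 5.17 and 8.26 in Col-0, and on the log2 scale the transcription factor genes WRKY46 with 2.25 and WRKY40 with 1.84, and TCH3, a calmodulin-like protein gene, with 2.08. In the direct contrast edgeR called 1 of the 13, WRKY46, higher in LNJ-OX than in jazD, against 96 of all 21374 genes. TCH4 (1.51 on the log2 scale, edgeR adjusted p = 0.0127) and TCH3 (1.36, edgeR adjusted p = 0.0280) were also higher without reaching the threshold. DESeq2 called 4 higher, TCH3 and TCH4 among them, and limma-voom called 1. The summed level of the 15 listed genes was 236 and 257 CPM in Col-0, 858 and 743 in LNJ-OX, with 390 and 378 in jazD. The part of these genes in the members' levels in LNJ-OX was not tested.

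**Figure D4:**
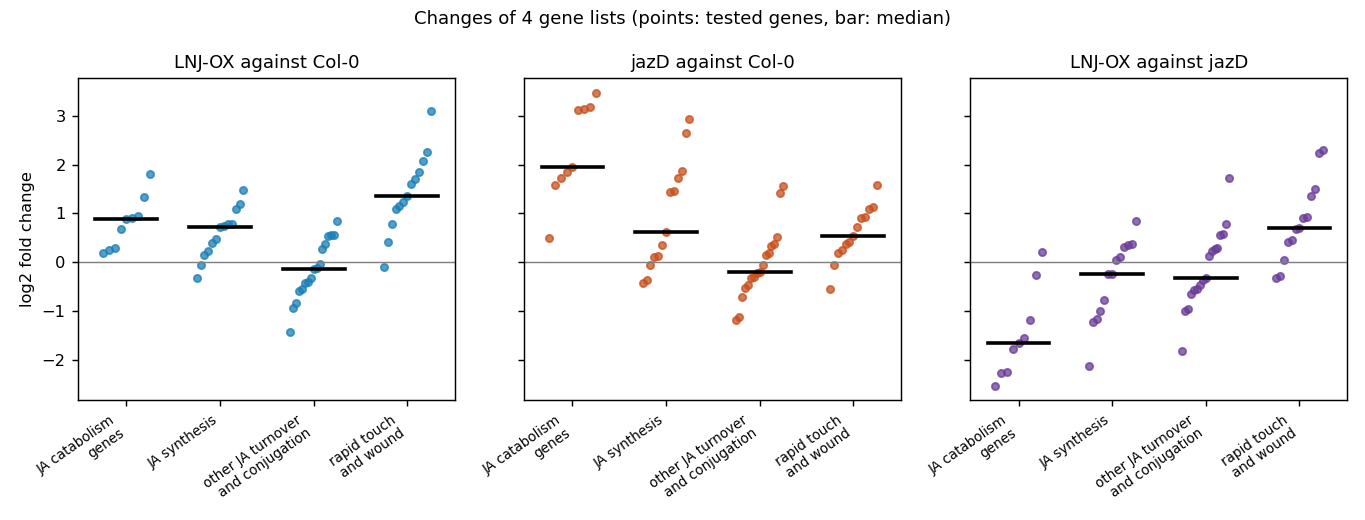
Log2 fold changes (vertical axis) of the tested genes of 4 lists in the 3 comparisons, each point 1 gene and each bar the median of its list. In jazD the JA catabolism genes have a median of 1.95 and JA synthesis genes one of 0.63, the latter ranging from −0.42 to 2.92. In LNJ-OX the touch and wound genes have the highest median, 1.35.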

How the data were processed

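RNA was sequenced from 6 libraries, 2 for each of Col-0, LNJ-OX and jazD, grouped by GEO's labels. The authors deposited 1 table of raw read counts per gene for each library, without rows for unassigned reads. The submitters' processing notes name Trim Galore 0.6.3, HISAT2 2.1.0, HTSeq 0.9.1 and the build TAIR10, and the strand setting is not given in the sources used here. Since rows for unassigned reads are missing, reads that fall on close copies could be placed or lost unseen. Tables of the authors' own comparisons (limma-voom log2 fold changes and p-values) were not used.

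A quasi-likelihood model (glmQLFit and glmQLFTest of edgeR 4.0.16, in R 4.3.3) was fitted to the deposited counts of all 6 libraries at once, since 2 per genotype leave few degrees of freedom, after filterByExpr and with TMM scaling. P-values were adjusted over 21374 genes by the Benjamini-Hochberg method, and the study's thresholds for a call were used (0.01 for the adjusted p, 1 for the size of the log2 fold change). The SE is the log2 fold change divided by the square root of the F statistic. CPM are counts divided by the TMM-scaled library size, on the usual CPM scale, and levels per kb were divided by the union of annotated exons. The comparisons with Col-0 share the Col-0 libraries. Library totals ran from 10164591 to 15003290 counts, and 3 counts came to between 0.189 and 0.315 CPM in a library. The common biological coefficient of variation was 0.232.

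Names, gene models and promoters came from RefSeq (TAIR10.1), whose gene table held 32548 of the 32833 identifiers. Coordinates are those of TAIR10.1. Likeness was the Pearson r of log2 CPM (prior count 2) to the members' mean standardized profile. On simulated counts with 200 of 20994 genes changed 4-fold in LNJ-OX, the procedure called 167 of them and 7 others.

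The fit was repeated with DESeq2 1.42.0 and limma-voom (limma 3.58.1), with other scaling (RLE factors or library totals), with other filters (none, or 1 CPM in at least 2 libraries), on just the 4 libraries of a comparison, with replicate number as a block, without each library and at an adjusted p under 0.05. The members and the gene lists were chosen with earlier results of these data known. All 10 members are named. Of the other lists, genes called in at least 1 comparison may be named, up to 4 a list by absolute log2 fold change, and the 5 genes most like the members. ST2B, ILL5 and CYP94B2 are named as close copies, and AFP2 as the source of the transgene.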

Additional observations from a re-analysis of the deposited data

Results flagged for a closer look

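For CYP94B1, JAO2, JAO3 and ST2A the log2 fold change against Col-0 was unequal in LNJ-OX and in jazD, as tested by the direct contrast in edgeR. None of these 4 genes was called in LNJ-OX against Col-0. The log2 effect in LNJ-OX minus that in jazD was −2.52 for CYP94B1, with 3.13 ± 0.325 CPM in LNJ-OX and 17.9 ± 2.23 CPM in jazD (SD, n = 2). It was −2.25 for JAO2 (50.8 ± 14.1 against 241 ± 69.4 CPM) and −2.25 for JAO3 (39.5 ± 15.8 against 189 ± 6.02 CPM). For ST2A it was −1.66 (10.5 ± 0.823 against 33.1 ± 2.56 CPM). In these 4 genes every jazD library lay above every LNJ-OX library. This adds little, since the contrast that selected them used the same libraries. It also held for JAO4, CYP94C1 and ILL6, and for 25% of all tested genes.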

How the results depend on the processing

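Of 378 values, the 9 tested members under each alternative in the 3 comparisons, 333 kept their direction and their side of the threshold, 20 lost a call, 20 gained one and 5 turned sign. The sign turned for CYP94C1 in LNJ-OX against Col-0 (−0.02 without Col-0 replicate 1, and from −0.64 to 0.69 over the libraries left out), and in LNJ-OX against jazD for CYP94B3 (−0.09 without LNJ-OX replicate 1, and from −0.17 to 0.70) and IAR3 (from −0.53 to 0.071, above 0 without jazD replicate 1). Members called higher in LNJ-OX went from 0 to 2 without a filter and to 1 at an adjusted p under 0.05, and stayed at 0 without each library. In jazD 4 went to 8 without a filter and ranged from 0 to 6 without each library. Members called lower in LNJ-OX than in jazD went from 4 to 8 without a filter and ranged from 0 to 4 without each library. JAO4 and ILL6 were called in jazD with DESeq2, without a filter, with only the 4 libraries compared, with the replicate block and without either LNJ-OX library. The cause of these changes was not tested, except that leaving out a library leaves 1 sample in its genotype, whose spread is assumed to be that of the others. Over all tested genes, deviations of same-numbered libraries correlated at 0.0891, 0.0587 and −0.00281, so little pairing by replicate number was seen. These values cannot decide whether part of the genes shared a pairing, which was not tested. With the replicate block 6 members were called higher in jazD, 0 in LNJ-OX against Col-0, and 4 lower in LNJ-OX than in jazD.

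Over all genes, 179 were called higher and 125 lower in LNJ-OX, whereas jazD had 94 and 144 and the direct comparison 96 and 71. Without a filter the 3 pairs of counts were 752 and 646, 480 and 830, and 596 and 343, with DESeq2 467 and 355, 277 and 441, and 318 and 184, and with the replicate block 366 and 304, 241 and 413, and 220 and 135. Library totals gave 171 and 60 in LNJ-OX, with 71 and 72 in jazD. Limma-voom called 65 lower in jazD. With only the 4 libraries compared, 85 were higher in LNJ-OX, 182 higher and 396 lower in jazD, and 147 higher in LNJ-OX than in jazD. An adjusted p under 0.05 gave 547 and 490, 308 and 574, and 280 and 161. Without each library the counts ranged from 6 to 265 and 5 to 213 for LNJ-OX, from 13 to 198 and 19 to 394 for jazD, and from 19 to 141 and 33 to 95 between them. JAO1, with 0 to 18 counts in a library, was too low to pass the filter of the main fit. Without a filter JAO1 was tested and was among the members called lower in LNJ-OX than in jazD. With 2 libraries a genotype, a difference that missed the threshold is not shown to be absent.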

Other observations

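Close copies of the members were read for comparison, chosen by sequence. ST2B, the neighbour of ST2A and a sulfotransferase gene like it, had 6.36 and 5.35 CPM in Col-0, 4.15 and 4.56 in LNJ-OX, with 8.81 and 8.01 in jazD. On the log2 scale it differed from Col-0 by 0.52 in jazD (edgeR adjusted p = 0.544) and −0.43 in LNJ-OX (edgeR adjusted p = 0.524), beside 1.95 and 0.29 for ST2A, and the difference between the copies was not tested. ILL5, the copy of IAR3 beyond 1 coding gene, was counted 6 and 0 times in Col-0, 7 and 2 times in LNJ-OX, and 10 and 5 times in jazD. CYP94B2, which is 65.6% identical to CYP94B1 in coding sequence, was counted 0 times in both Col-0 libraries, 2 and 0 times in LNJ-OX, and 4 and 0 times in jazD. Both copies were too low to be tested.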
